A study of Mus musculus with 4 samples.

Results

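The genes for alpha and beta adrenoceptors, the receptors of norepinephrine (NE) and epinephrine, were followed in a fat depot under the skin, the inguinal white adipose tissue (ingWAT), of cold-housed mice. They were taken by their symbols, and all 8 genes, *Adrb1*, *Adrb3*, *Adra1a*, *Adra1b*, *Adra1d*, *Adra2a*, *Adra2b* and *Adra2c*, were among the 19030 genes listed. Ctrl mice carried floxed *Oct3* alleles (Oct3 fl/fl), and cKO mice carried the same alleles with Adiponectin-Cre, a transgene driven by the *Adiponectin* promoter, which is active in fat cells of every depot. Both groups were C57BL/6 mice aged 3 months and housed at 4 °C, and per the labels there were 2 libraries of each genotype. The Methods describe male mice that were first kept at a milder temperature and then at 4 °C for weeks. Whether the Ctrl mice carried a Cre transgene is not stated, so the transgene and the loss of *Oct3* cannot be told apart. Nothing states that the libraries came from separate animals or how many mice each holds, so the p-values measure only the spread between these libraries, which may be technical.

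Adrenoceptors are receptors that act through G proteins. The β receptors couple to Gs, which raises cAMP, and in fat cells this drives lipolysis and heat production. The α2 receptors couple to Gi, which lowers cAMP, and the α1 receptors couple to Gq, which releases calcium through phospholipase C. Oct3 is a transporter that takes NE up into cells that are not neurons, and it is encoded by *Slc22a3*.

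The expression values are FPKM, fragments per kilobase of transcript per number of mapped fragments in the library, so levels can be set side by side between genes. The depth was estimated from the FPKM values of short RNAs as 18075000 and 17875000 reads in Ctrl and 17225000 and 17250000 reads in cKO. *Slc22a3*, the targeted gene, had an FPKM of 17.0 and 17.7 in Ctrl and of 9.07 and 9.50 in cKO. Its log2 fold change was -0.83 (limma, Benjamini-Hochberg adjusted p = 0.000439), and the FPKM of both cKO libraries lay below that of both Ctrl libraries.

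The receptor genes lie on 6 chromosomes of GRCm38, the assembly that the browser name mm10 stands for. *Adrb3* (Entrez gene 11556, chromosome 8, 27225776 to 27230845, minus strand) has 4 exons in the annotation. The single-exon gene *Adrb1* (Entrez gene 11554, 56722117 to 56725150, plus strand) and *Adra2a* (Entrez gene 11551, 54045259 to 54048982, plus strand) both lie on chromosome 19. *Adra1a* (Entrez gene 11549) lies at 66635251 to 66771240 on the plus strand of chromosome 14, and *Adra1b* (Entrez gene 11548) at 43774605 to 43901250 on the minus strand of chromosome 11. *Adra1d* (Entrez gene 11550) lies at 131545357 to 131562497 on the minus strand of chromosome 2. *Adra2b* (Entrez gene 11552, chromosome 2, 127363179 to 127367221, plus strand) and *Adra2c* (Entrez gene 11553, chromosome 5, 35278566 to 35281763, plus strand) each have 1 exon. By position, an exon of *Adrb3* overlaps one of the gene *Gm45470*, and an exon of *Adra1d* overlaps one of the gene *Gm14285*. The library protocol names no step that marks the strand, so reads from the overlap of such a pair cannot be told apart. Neither *Gm45470* nor *Gm14285* has a row of its own.

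RefSeq windows upstream of the start site were matched for 5 of the 8 genes. They were searched on both strands for the cAMP response element, the site of the cAMP-regulated factor CREB. The full site TGACGTCA was in 0 of the windows of these 5 genes and in 1.55% of the 32851 windows of all genes. The short core TGACG, or CGTCA on the other strand, was in the windows of *Adrb1* and *Adra2a* and in 17.8% of all windows. A full site always holds the core. These windows are shown because *Adrb1* had the largest difference between genotypes of the 6 genes tested and *Adra2a* was the other gene with a match. Each is 250 bases long, ends at the base before the start site and is printed 5′ to 3′ with the core in capitals.
Adrb1, chr19:56721867-56722116, plus strand, GRCm38.p6: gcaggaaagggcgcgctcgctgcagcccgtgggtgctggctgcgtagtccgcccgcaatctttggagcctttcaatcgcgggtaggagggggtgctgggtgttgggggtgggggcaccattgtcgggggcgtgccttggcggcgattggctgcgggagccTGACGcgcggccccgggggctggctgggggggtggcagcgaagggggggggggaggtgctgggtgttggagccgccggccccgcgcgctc
Adra2a, chr19:54045009-54045258, plus strand, GRCm38.p6: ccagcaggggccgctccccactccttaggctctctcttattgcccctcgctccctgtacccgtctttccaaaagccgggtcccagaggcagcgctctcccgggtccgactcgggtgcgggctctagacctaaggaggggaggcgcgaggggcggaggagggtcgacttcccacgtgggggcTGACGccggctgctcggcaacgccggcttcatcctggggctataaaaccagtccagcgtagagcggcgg
The core begins 90 bases upstream of the start of *Adrb1* and 69 bases upstream of that of *Adra2a*. Both windows are rich in G and C, with 74.0% and 67.6%, against a median of 52.4% over all windows. A match of letters is a description of the window and not of binding in these samples.

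Of the 8 receptor genes, 6 reached an average of 1 FPKM across the libraries and were tested with limma on log2(FPKM + 1). *Adrb1* and *Adra1a* were higher in cKO, *Adrb3* and *Adra1d* were lower, and *Adra1b* and *Adra2a* did not pass an adjusted p of 0.05. These 4 calls among 6 genes stand beside 25.8% of all 12658 genes tested that were called. Of all genes tested, 12.0% were called higher and 13.8% lower in cKO. In 8 of the 8 genes the FPKM of the genotypes did not overlap, as in 56.0% of all genes listed. Over all genes tested the log2 fold changes had a median of -0.006. Log2 fold changes compare cKO with Ctrl after 1 was added to each FPKM. This makes the change of a low gene look smaller, so the plain ratio of the mean FPKM is given as well.

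**Figure D1:**
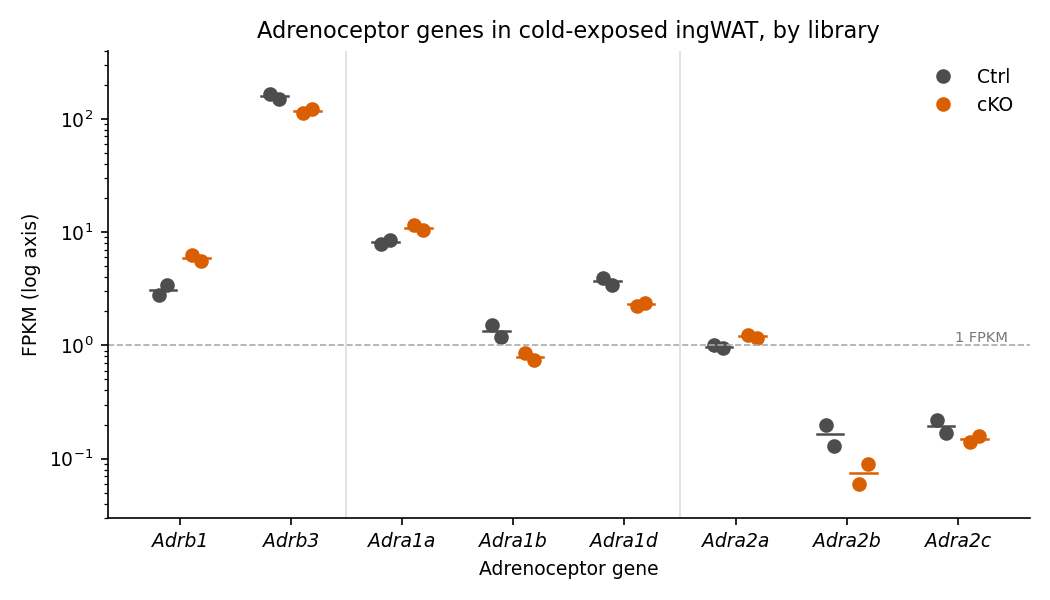
FPKM (log axis) of each of the 8 adrenoceptor genes in the 2 Ctrl and 2 cKO libraries; points are libraries, short lines are group means, and the dashed line marks 1 FPKM. *Adrb3* had at least 113 FPKM in every library and every other gene at most 11.5, and the points of the genotypes did not overlap for any of the 8 genes.

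*Adrb3* encodes the β3 receptor, the main adrenoceptor of mouse fat cells. Its FPKM was 166 and 151 in the Ctrl libraries and 113 and 122 in the cKO libraries. Both cKO libraries were below both Ctrl libraries, and the gap between the groups was wider than the spread within either. The means were 159 ± 10.8 and 118 ± 6.34 (SD, n = 2 each), a ratio of 0.742. On the log2 scale the difference was -0.43 with a standard error of 0.0712 (limma, Benjamini-Hochberg adjusted p = 0.00568). Without Ctrl replicate 1 it was -0.36 and the call was lost (limma, Benjamini-Hochberg adjusted p = 0.0763). Over 12 alternatives of the processing the adjusted p from limma ran from 0.00129 to 0.0763. With about 5384 to 8302 reads in each library by the depth estimate, counting error was small for this gene. Only 2.93% of the genes listed had a higher mean FPKM.

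Because fewer cells of a type and less RNA per cell cannot be told apart in bulk tissue, *Adrb3* was also set against genes of the fat cell. As a percentage of the FPKM of *Plin1*, which encodes the coat protein perilipin of the lipid droplet, *Adrb3* came to 31.2 and 30.4% in Ctrl and to 22.6 and 25.6% in cKO. As a percentage of *Lipe*, which encodes hormone-sensitive lipase, it came to 32.6 and 30.7% in Ctrl and to 22.2 and 25.5% in cKO. Against both genes *Adrb3* was lower in each cKO library than in either Ctrl library. Relative to *Adipoq*, which encodes the hormone adiponectin, it came to 10.9 and 10.2% in Ctrl and to 11.7 and 11.7% in cKO. Against *Adipoq* the order was thus the opposite, and *Adipoq* itself had an FPKM of 1527 and 1485 in Ctrl and of 966 and 1046 in cKO. The direction of *Adrb3* per fat cell marker therefore depended on the marker.

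*Adrb1* encodes the β1 receptor, which is best known from the heart and is also found in fat. Its FPKM was 2.79 and 3.39 in Ctrl and 6.33 and 5.60 in cKO. Both cKO libraries were above both Ctrl libraries, opposite to *Adrb3*. From 3.09 ± 0.424 (SD, n = 2) to 5.96 ± 0.516 (SD, n = 2), the mean changed by a ratio of 1.93. On the log2 scale the difference was 0.77 with a standard error of 0.106 (limma, Benjamini-Hochberg adjusted p = 0.00279), the largest in size of the 6 genes tested. Leaving out Ctrl replicate 1 gave 0.66 and lost the call (limma, Benjamini-Hochberg adjusted p = 0.0527), and over 11 alternatives the adjusted p from limma ran from 0.00232 to 0.0527. The values stood for about 147 and 177 reads in Ctrl and 318 and 282 reads in cKO.

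The α1 receptors showed both directions. *Adra1a*, the gene of the α1A receptor, had an FPKM of 7.87 and 8.56 in Ctrl and of 11.5 and 10.4 in cKO. It was the second most abundant receptor gene of the 8 in every library, and both cKO libraries were above both Ctrl libraries. The mean went from 8.21 ± 0.488 (SD, n = 2) to 11 ± 0.771 (SD, n = 2), a ratio of 1.33. On the log2 scale the difference was 0.38 with a standard error of 0.08 (limma, Benjamini-Hochberg adjusted p = 0.0142). This was the least stable of the calls, since it held in 1 of 4 fits that left out a library. The adjusted p from limma was 0.144 without Ctrl replicate 1, 0.0663 without Ctrl replicate 2 and 0.0745 without cKO replicate 1. Without the filter on low values it was 0.0664, and over 12 alternatives it ran from 0.00644 to 0.144.

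*Adra1d*, the gene of the α1D receptor, moved the other way. It had an FPKM of 3.90 and 3.44 in Ctrl and of 2.24 and 2.36 in cKO, with both cKO libraries below both Ctrl libraries. The mean went from 3.67 ± 0.325 (SD, n = 2) to 2.30 ± 0.0849 (SD, n = 2), a ratio of 0.627. On the log2 scale the difference was -0.50 with a standard error of 0.0988 (limma, Benjamini-Hochberg adjusted p = 0.0108). The call was lost without Ctrl replicate 1 (limma, Benjamini-Hochberg adjusted p = 0.114) and without Ctrl replicate 2 (adjusted p = 0.0502). Without the filter on low values the adjusted p from limma was 0.0544, and over 11 alternatives it ran from 0.00846 to 0.114.

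*Adra1b*, the gene of the α1B receptor, had an FPKM of 1.52 and 1.18 in Ctrl and of 0.85 and 0.74 in cKO. The cKO libraries were again below the Ctrl libraries, at a ratio of 0.589, but the log2 fold change of -0.39 did not pass (95% interval -0.70 to -0.07, limma, Benjamini-Hochberg adjusted p = 0.0728). It passed in 1 of 11 alternatives, the fit without a variance trend, and over these alternatives the adjusted p from limma ran from 0.0355 to 0.274. At 38.4 to 90.5 reads in a library, the precision of this gene was lower than that of *Adra1a* or *Adrb3*.

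The α2 receptors, which act against the β receptors in fat cells, were low in every library. *Adra2a* had an FPKM of 1 and 0.95 in Ctrl and of 1.24 and 1.17 in cKO. The cKO libraries were above the Ctrl libraries by a small margin, and the log2 fold change of 0.16 did not pass (95% interval -0.12 to 0.44, limma, Benjamini-Hochberg adjusted p = 0.366). *Adra2b* had an FPKM of 0.20 and 0.13 in Ctrl and of 0.06 and 0.09 in cKO, which stood for 14.1, 9.1, 4.0 and 6.1 reads by the depth estimate. *Adra2c* had an FPKM of 0.22 and 0.17 in Ctrl and of 0.14 and 0.16 in cKO, about 8.2 to 13.6 reads. In both genes the cKO libraries were below the Ctrl libraries, and both lay under the mean FPKM of 1 that the test required. When the filter was dropped, the log2 fold changes were -0.12 for *Adra2b* and -0.06 for *Adra2c*, and neither passed (limma with Benjamini-Hochberg adjustment over 19030 genes, adjusted p = 0.194 and 0.435). At such levels the 1 added to each FPKM makes the log2 fold change small, and the ratios of the mean FPKM were 0.455 and 0.769.

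**Figure D2:**
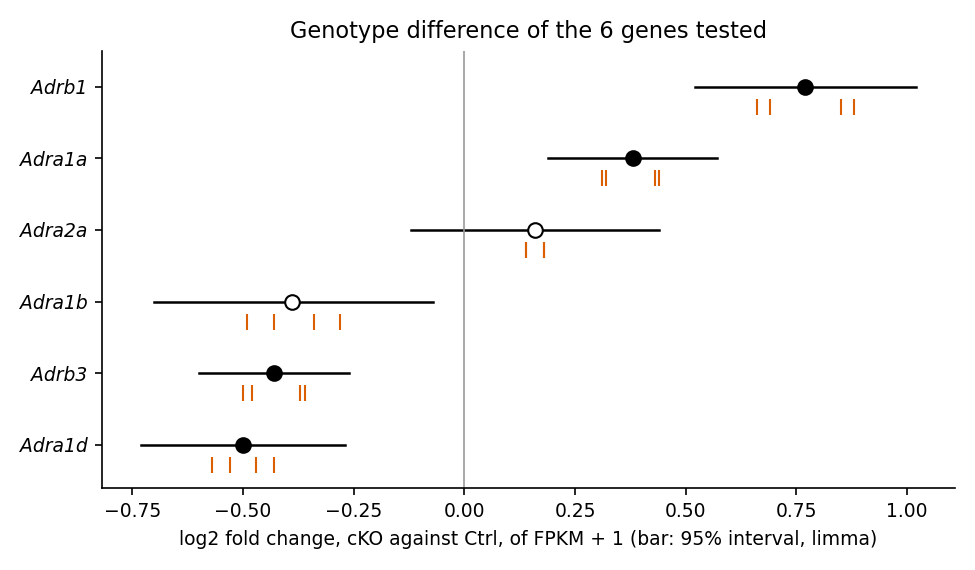
Log2 fold change of FPKM + 1, cKO against Ctrl, of the 6 adrenoceptor genes tested; circles are estimates (filled where the adjusted p passed 0.05), bars are 95% intervals from limma, and orange ticks are the estimates with 1 library left out. *Adrb1* (0.77) and *Adra1a* (0.38) were higher, *Adrb3* (-0.43) and *Adra1d* (-0.50) lower, and the ticks of each gene stayed on its side of 0.

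By composition, β3 transcripts made up most of the FPKM summed over the 8 genes in both genotypes, and less of it in cKO. The sum was 184 and 169 FPKM in Ctrl and 136 and 143 in cKO. *Adrb3* took 90.5 and 89.5% of it in Ctrl and 83.5 and 85.6% in cKO, with means of 90.0 ± 0.732% and 84.6 ± 1.49% (SD, n = 2 each). The Ctrl and cKO shares did not overlap, and the gap was larger than the SD of either group. With 2 libraries a group an exact two-sided permutation test of a single share cannot go below p = 0.333, so the shares are given without a test. The share of *Adrb1* was 1.52 and 2.01% in Ctrl and 4.67 and 3.92% in cKO, and that of *Adra1a* was 4.28 and 5.07% in Ctrl and 8.49 and 7.30% in cKO. Both shares were higher in each cKO library than in either Ctrl library.

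Grouped by receptor class, the β genes made up 92.0 and 91.5% of the sum in Ctrl and 88.2 and 89.5% in cKO. The α1 genes made up 7.22 and 7.80% in Ctrl and 10.8 and 9.47% in cKO, and the α2 genes 0.772 and 0.740% in Ctrl and 1.06 and 0.995% in cKO. The class order was the same in every library, with β first and α2 last. The summed α1 FPKM itself was apart by a small margin, with 13.3 and 13.2 in Ctrl and 14.6 and 13.5 in cKO, while the summed β FPKM was 169 and 155 in Ctrl and 120 and 128 in cKO. The larger α1 share thus came with a lower β sum, to which *Adrb1* added 1.65 and 2.19% in Ctrl and 5.29 and 4.38% in cKO.

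Within the α1 class the mixture differed more than the sum. *Adra1a* made up 59.2 and 64.9% of the α1 FPKM in Ctrl and 78.8 and 77.1% in cKO. *Adra1d* made up 29.3 and 26.1% in Ctrl and 15.3 and 17.5% in cKO, and *Adra1b* 11.4 and 8.95% in Ctrl and 5.82 and 5.47% in cKO. None of these shares overlapped between genotypes. The ratio of *Adra1a* to *Adra1d* was 2.02 and 2.49 in Ctrl and 5.14 and 4.42 in cKO.

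**Figure D3:**
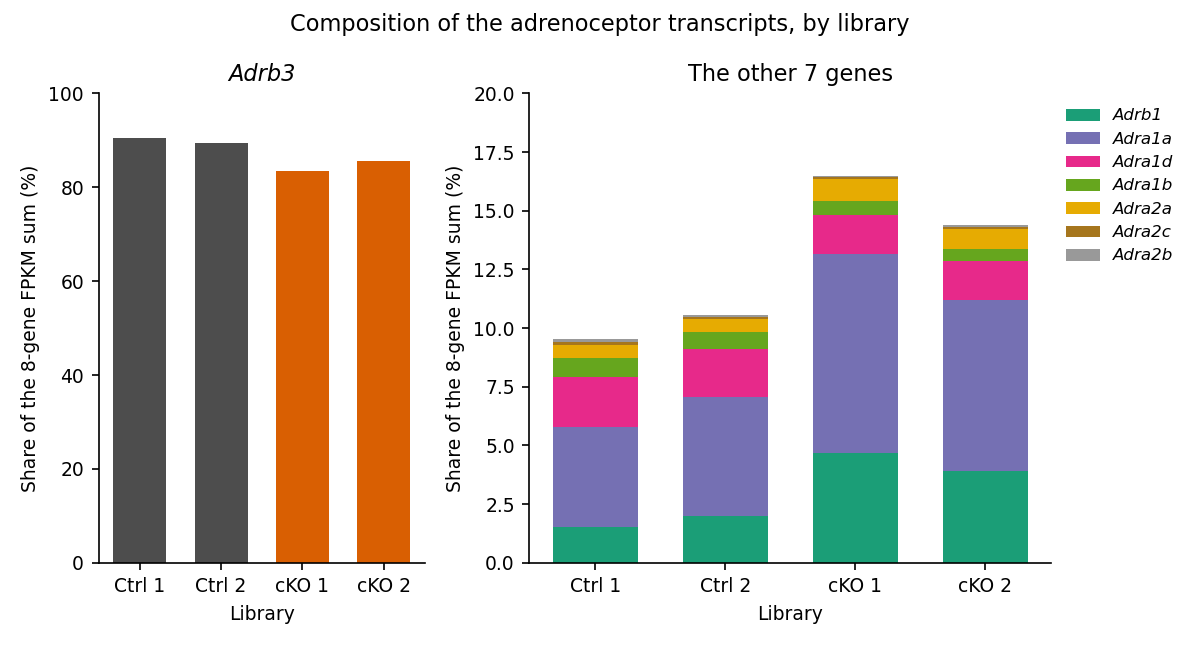
Share (%) of the FPKM summed over the 8 adrenoceptor genes in each library, with *Adrb3* on the left and the other 7 genes stacked on the right on an axis that ends at 20%. *Adrb3* made up 90.5 and 89.5% in Ctrl and 83.5 and 85.6% in cKO, and *Adrb1* and *Adra1a* took up more of the stack in both cKO libraries.

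The 2 β genes also differed in their ratio to each other. There were 59.7 and 44.6 *Adrb3* FPKM for each *Adrb1* FPKM in Ctrl, and 17.9 and 21.8 in cKO. The means were 52.1 ± 10.7 and 19.9 ± 2.78 (SD, n = 2 each), and the libraries of the genotypes did not overlap. For each FPKM of *Adra1a* there were 21.1 and 17.7 of *Adrb3* in Ctrl and 9.84 and 11.7 in cKO. For each FPKM of *Adra2a*, the α2 gene with the highest level, there were 166 and 159 of *Adrb3* in Ctrl and 91.3 and 104 in cKO. *Adrb3* was thus lower in both cKO libraries against each of these 3 genes, which were themselves higher in cKO. Among the genes lower in cKO, the ratio of the mean FPKM was 0.742 for *Adrb3* and 0.769 for *Adra2c*. It was 0.627 for *Adra1d*, 0.589 for *Adra1b* and 0.455 for *Adra2b*, so by the means *Adrb3* was not lower against these.

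Without *Adrb3*, the other 7 genes summed to 17.5 and 17.8 FPKM in Ctrl and to 22.4 and 20.5 in cKO. Of this smaller sum *Adra1a* made up 45 and 48% in Ctrl and 51.5 and 50.7% in cKO, and *Adrb1* 15.9 and 19.0% in Ctrl and 28.3 and 27.3% in cKO. *Adra1d* made up 22.3 and 19.3% in Ctrl and 10.0 and 11.5% in cKO. *Adrb1* and *Adra1d* thus changed places. *Adra2a* kept nearly the same part, with 5.71 and 5.33% in Ctrl and 5.54 and 5.70% in cKO, and here the groups overlapped.

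In order of mean FPKM, the Ctrl libraries ran from *Adrb3* through *Adra1a*, *Adra1d*, *Adrb1*, *Adra1b* and *Adra2a* to *Adra2c* and *Adra2b*. Each gene lay apart from its neighbour in both libraries except *Adra2c* and *Adra2b*, whose libraries overlapped. In cKO the order was *Adrb3*, *Adra1a*, *Adrb1*, *Adra1d*, *Adra2a*, *Adra1b*, *Adra2c* and *Adra2b*, and every neighbour lay apart. Between the genotypes *Adrb1* moved above *Adra1d*, and *Adra2a* moved above *Adra1b*. The ratio of *Adrb1* to *Adra1d* was 0.715 and 0.985 in Ctrl and 2.83 and 2.37 in cKO, and that of *Adra2a* to *Adra1b* was 0.658 and 0.805 in Ctrl and 1.46 and 1.58 in cKO. Both ratios lay under 1 in each Ctrl library and over 1 in each cKO library.

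The genes around the receptors were read from 6 lists with 99 genes, of which 66 were tested and 27 (40.9%) were called, 14 higher and 13 lower in cKO, beside 25.8% of all genes tested. Without Ctrl replicate 1, 9 of the 66 (13.6%) were called, beside 6.22% of all genes, and without Ctrl replicate 2, 14 (21.2%), beside 11.7%. Of 15 tested genes for G protein subunits 2 were higher and 2 lower, and the median of their log2 fold changes was -0.04. These 26.7% called were close to the 25.8% of all genes, so the genes named here are examples and say nothing particular of the list. *Gnas*, which encodes the Gs subunit that the β receptors use, had an FPKM of 753 and 794 in Ctrl and of 1027 and 959 in cKO (log2 fold change 0.36, limma, Benjamini-Hochberg adjusted p = 0.0139). *Gnai1*, which encodes a Gi subunit, had 57.7 and 59.2 in Ctrl and 38.3 and 42.1 in cKO (log2 fold change -0.53, limma, Benjamini-Hochberg adjusted p = 0.00179). These FPKM did not overlap between genotypes, and *Gnai1* was called in all 4 fits with a library left out, whereas *Gnas* was lost without either Ctrl library (largest adjusted p from limma 0.197). *Gnao1*, for the Go subunit, was called higher (log2 fold change 0.72), and *Gnaq*, for the Gq subunit of the α1 receptors, lower (-0.23). *Gnao1* was lost without Ctrl replicate 1 and *Gnaq* whenever any 1 library was left out, with largest adjusted p from limma of 0.061 and 0.184. Of the 15 genes 1 was called without Ctrl replicate 1 and 2 without Ctrl replicate 2.

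Receptor kinases, arrestins and RGS proteins, which end receptor signals, gave 16 tested genes, 4 higher and 4 lower, and a median of 0.07 on the log2 scale. The share called was 50.0%, beside 25.8% of all genes tested. The largest rises called were those of *Adrbk2*, which encodes a β adrenoceptor kinase (log2 fold change 0.51), and *Rgs2*, which encodes a protein that acts on Gq (0.45). The largest falls were those of *Arrdc3*, for an arrestin-like protein that binds β receptors (-0.61), and *Rgs5*, a gene of the cells around vessels (-0.32). The calls of *Adrbk2* and *Arrdc3* were lost without Ctrl replicate 1, with adjusted p from limma of 0.0693 and 0.0615, and *Rgs2* was lost without Ctrl replicate 1 or either cKO library and *Rgs5* without Ctrl replicate 2 or cKO replicate 1. Fewer of the 16 genes were called in every fit with a library left out, and the same was so of all genes tested. Among 11 effectors of Gq, 3 were higher and 2 lower, and the median on the log2 scale was 0.19. Here the share called was 45.5%, beside the 25.8% of all genes. *Itpr2*, for a calcium channel opened by inositol trisphosphate (0.48), and *Prkcd*, for protein kinase C delta (0.36), rose most, and *Plcb1*, for a phospholipase C that Gq turns on (-0.47), and *Prkca*, for protein kinase C alpha (-0.39), fell most. Fewer of these 11 genes, too, were called in every fit with a library left out, as was so of all genes tested.

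Of 12 tested genes known to respond to cAMP, 5 were higher and 1 lower, and the log2 fold changes had a median of 0.32. The share called was 50.0%, beside 25.8% of all genes tested. *Ucp1*, the uncoupling protein of heat-producing fat cells, had an FPKM of 335 and 446 in Ctrl and of 1658 and 1420 in cKO. *Dio2*, which encodes the enzyme that activates thyroid hormone, had 1.98 and 3.17 in Ctrl and 11.7 and 10.8 in cKO. Both cKO libraries were far above both Ctrl libraries for these genes. They stand in the study's own heat maps, so their direction is not independent evidence. In contrast, *Fos*, an immediate-early gene, was lower, with an FPKM of 19.3 and 14.1 in Ctrl and of 2.94 and 4.19 in cKO (log2 fold change -1.96, limma, Benjamini-Hochberg adjusted p = 0.000601). All 3 genes were called with each library left out.

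Of 11 tested genes for other receptors that couple to cAMP, 0 were higher and 4 lower, and the log2 fold changes had a median of -0.22. The share called was 36.4%, beside 25.8% of all genes tested. *Tshr*, the receptor gene of thyrotropin, had an FPKM of 29.0 and 29.7 in Ctrl and of 16.1 and 18.1 in cKO, and *Ptger3*, the gene of a Gi-coupled prostaglandin receptor, had 55.7 and 51.1 in Ctrl and 33.7 and 34.5 in cKO. Both were below Ctrl in each cKO library. Fewer genes of the list were called without either Ctrl library in turn, and the same was so of all genes tested. Of 25 genes for receptors of dopamine, serotonin, histamine, acetylcholine (the muscarinic type) and trace amines, 16 were listed, none of them for a trace amine receptor, and 1 was tested, *Hrh2*, which was not called (log2 fold change -0.05).

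**Figure D4:**
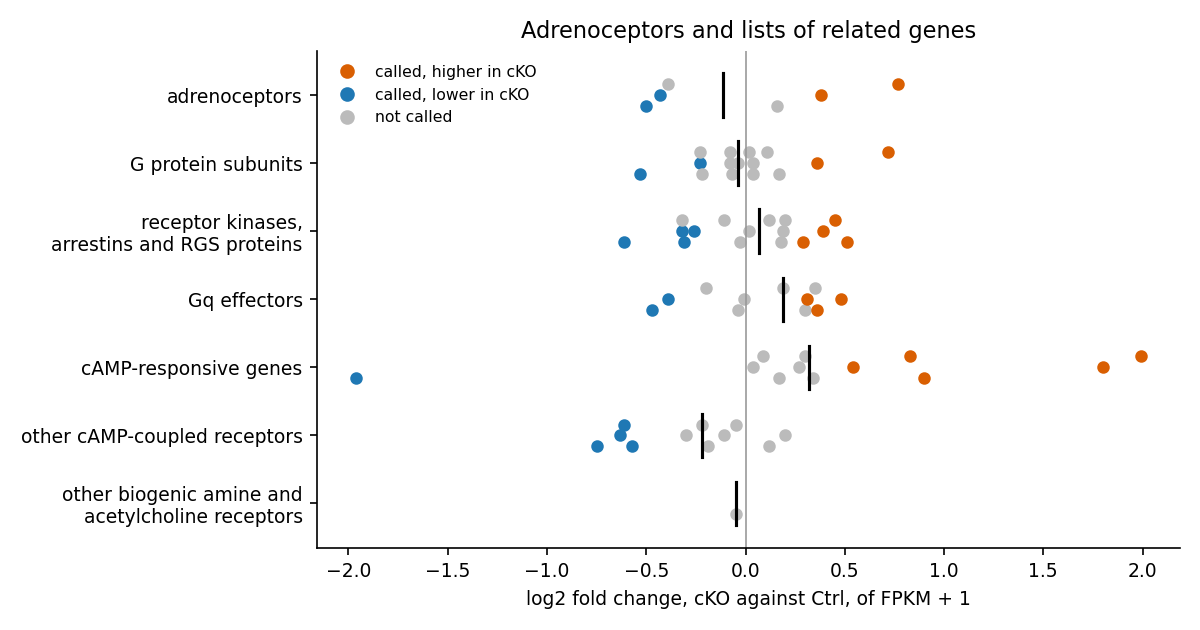
Log2 fold change of FPKM + 1, cKO against Ctrl, of each tested gene (points) of the adrenoceptors and of 6 lists of related genes; black bars are list medians and colours mark genes called with an adjusted p under 0.05. The adrenoceptors lay on both sides of 0, and the widest points were *Ucp1* (1.99) and *Fos* (-1.96) among the cAMP-responsive genes.

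Markers of the cells that ingWAT can hold were read beside the receptors. Of 10 skeletal muscle markers, 8 were tested and 8 were called lower in cKO. Their log2 fold changes had a median of -7.02, and the list had a summed FPKM of 2289 and 1539 in Ctrl and of 10.1 and 7.97 in cKO. All 4 fibroblast progenitor markers were lower, with sums of 279 and 225 against 92.4 and 93.0, and 3 of 4 Schwann cell markers were lower and 1 higher, with sums of 96.0 and 89.9 against 47.0 and 47.5. *Adrb3* and *Adra1d* were lower in the same libraries. All 6 B cell and T cell markers were higher, with sums of 186 and 209 against 289 and 339, as were *Adrb1* and *Adra1a*. No list of brown or beige fat cell markers was read, so such genes were not counted in either direction. *Ucp1* and *Cidea*, which the study itself reports as higher in cKO, rose in the same libraries as well. *Ucp1* had 335 and 446 FPKM in Ctrl and 1658 and 1420 in cKO, and *Cidea* had 342 and 416 in Ctrl and 1001 and 839 in cKO. Of 5 white adipocyte markers 2 were lower, *Adipoq* and *Lep*, and *Adrb3* was lower beside them. *Fabp4*, *Plin1* and *Lipe* were not called. The sums of the list were 18540 and 18969 against 15469 and 15655. Most of each sum was *Fabp4*, with 15874 and 16398 FPKM in Ctrl and 13456 and 13616 in cKO. Smooth muscle markers, with 1 of 5 higher and 1 lower, had sums of 109 and 95.6 in Ctrl and of 90.6 and 91.5 in cKO. The lower gene was *Des*, with 40.9 and 31.3 FPKM in Ctrl and 17.9 and 18.9 in cKO. The higher gene was *Acta2*, with 22.3 and 21.8 in Ctrl and 26.9 and 25.8 in cKO, so the lower sum does not describe the whole list. Endothelial markers had 2 of 4 lower, with sums of 168 in each Ctrl library and of 146 and 151 in cKO, and macrophage markers had 1 of 4 higher and 2 lower, with sums of 113 and 97.1 against 114 and 100. The 8 skeletal muscle markers were called lower with each library left out. Without Ctrl replicate 1, 1 of the 6 B cell and T cell markers was called higher, and 1 Schwann cell, 1 white adipocyte, 1 endothelial and 3 fibroblast progenitor markers were called lower. Without Ctrl replicate 2, 4 of the 6 B cell and T cell markers were called higher, and 1 white adipocyte and 1 endothelial marker were called lower. Without cKO replicate 1, 2 Schwann cell markers and 1 endothelial marker were called lower and 0 Schwann cell markers higher, and without cKO replicate 2, 4 B cell and T cell markers were called higher and 2 Schwann cell markers lower. The smooth muscle marker called higher was lost in each of these fits. The part of these cells in the receptor values was not tested.

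Markers of other cells were near 0 in all libraries. The sympathetic neuron markers *Npy* and *Slc6a2* summed to at most 0.34 FPKM, and *Th* and *Dbh*, which make catecholamines, were not listed. The study followed sympathetic nerves in ingWAT by staining the protein of *Th*, so low RNA here does not show that nerves were absent. Keratinocyte markers summed to at most 2.43 FPKM, with 1 tested and 0 called, and epithelial markers to at most 1.25 FPKM. The genes of the white adipocyte list, led by *Fabp4*, were present in every library, as the label of a fat tissue implies. Their presence was not read as a sign of white rather than beige fat cells.

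The genes whose pattern over the 4 libraries was most like that of *Adrb3*, by Euclidean distance between centred log2(FPKM + 1) values, were *Cachd1*, *Tuba1b*, *Tcf7l1*, *Mctp1* and *Mamdc2*, with distances from 0.0131 to 0.0273. *Tuba1b*, a tubulin gene, had an FPKM of 366 and 337 in Ctrl and of 250 and 268 in cKO. *Tcf7l1*, a transcription factor gene of Wnt signalling, had 13.4 and 11.9 in Ctrl and 8.83 and 9.44 in cKO. Like *Adrb3*, both were highest in Ctrl replicate 1 and lowest in cKO replicate 1. Over 4 libraries such a likeness is a description only.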

How the data were processed

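Polyadenylated RNA of ingWAT was read as single-end sequences of 50 bases on the BGISEQ-500, and the authors deposited 1 FPKM value for each gene and library. The submitters' processing notes name HISAT2 2.0.4, RSEM 1.2.12 and mm10, with no roles, and no scaling between libraries is stated. Other columns were not used. The table holds no counts, so depth was estimated from the FPKM steps of 305 short RNA genes. Of their values 83.3 to 87.4% came out as whole reads within 0.1, and the largest error on 3 simulated libraries was 2.2%. Read numbers are therefore approximate.

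Genes that averaged 1 FPKM or more were compared with limma 3.58.1 in R 4.3.3 on log2(FPKM + 1), with a variance trend and Benjamini-Hochberg adjustment over 12658 genes, and genes with an adjusted p under 0.05 were called. On simulated data of 12658 genes with 200 changed by a log2 fold change of 1, 200 were called with 14 false calls, and with no change 8 were called. The simulated noise was independent for each value, with a spread set only by the level of the gene. It held no effect shared within a library, so these numbers do not give the false calls in the real data. Shares are of the FPKM summed over these 8 genes. A further item is not reported here. The members and lists were chosen with earlier results of these data known. Of each list of related genes, at most the 2 largest rises and the 2 largest falls among called genes without overlap were named, and for *Adrb3* the 5 nearest profiles. Marker genes were named only where their list moved with a receptor gene. *Npy*, *Slc6a2*, *Th*, *Dbh*, *Fabp4*, *Plin1*, *Lipe*, *Hrh2*, *Des*, *Acta2* and *Cidea* fall outside this rule and were chosen after their values were seen. Gene positions and promoters come from RefSeq and GENCODE on GRCm38. Alternatives covered the pseudocount, the filter, the scaling, the trend, a replicate block and each library left out.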

Additional observations from a re-analysis of the deposited data

How the results depend on the processing

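Of the 12 alternatives, 0 reversed the direction of a receptor gene. The adrenoceptor genes called were 4 of 6 tested. Without a filter on low values 2 were called (*Adrb1* and *Adrb3*), with 1762 in place of 3269 of all genes and 13 in place of 27 genes of the related lists. With a mean of at least 5 FPKM 2 receptor genes were called, the only 2 then tested. The other scalings, the other pseudocount and the fit without a trend kept the count of receptor genes within 1.5 times. Leaving out 1 library gave 0 to 4 receptor genes, 787 to 2340 of all genes and 9 to 24 of the related genes, always lowest without Ctrl replicate 1. Ctrl replicate 1 had the higher FPKM of *Adrb3* and the lower FPKM of *Adrb1* and *Adra1a* of the Ctrl libraries, and without it the 4 calls missed the threshold. With 0.1 added to each FPKM the mean shares of *Adrb3* were 89.6% in Ctrl and 84.1% in cKO.

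Whether the replicate numbers pair the libraries is not stated, and the correlation of the deviations of libraries with the same number was 0.0148. With the replicate number as a block, 3383 of all genes, 4 receptor genes and 29 of the related genes were called, and the block changed no call of a receptor gene.

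*Adra2b* and *Adra2c* had an estimated 4.0 to 14.1 reads a library, and 2 libraries a group limit all comparisons.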
